A study of Mus musculus with 9 samples.

Results

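The 43 genes described here encode proteins that license replication origins, unwind and copy DNA at the fork, supply deoxynucleotides, and assemble and methylate the chromatin behind the fork. They were chosen by name, from the known roles of their products, with earlier results of these data known. Their symbols were matched to the Ensembl identifiers of the count files. All 43 were found among the 46078 genes listed for cultured cells and among the 38293 listed for gastrocnemius muscle (GAS). RNA sequencing of C57BL/6 mouse material was used, 9 libraries in all. Primary myoblasts (MB), the proliferating precursor cells of muscle, had been kept in growth medium with horse serum, fetal bovine serum and basic FGF, and the 2 control MB libraries come from cells given PBS as the vehicle. A further 2 libraries come from MB given 10 mM sodium-L-lactate in PBS. Myotubes (MT), the fused and multinucleate cells that MB form, were represented by 2 libraries made after 3 days in differentiation medium with a low share of horse serum. GAS of female mice aged 8 to 12 weeks, without treatment, gave 3 libraries. Every cultured library was made with Smart-seq2, in which full-length cDNA is amplified before fragmentation. The GAS libraries were made by another protocol, from poly(A)-enriched RNA. The labels call the samples biological replicates without saying whether they came from separate isolations, so the p-values measure the spread between these samples.

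Replication starts at origins that were licensed beforehand, when the origin recognition complex, Cdc6 and Cdt1 load the ring of Mcm2 to Mcm7 onto DNA. Cdc45 and the GINS complex turn that ring into an active helicase as cells enter S phase, after which primase, the replicative polymerases, the sliding clamp PCNA and its loader copy both strands. Many genes of this machinery are targets of the E2F factors, whose activity is restrained by pocket proteins once muscle cells leave the cell cycle and differentiate.

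Because many genes of this machinery are known E2F targets, the promoters of the 43 genes were read first. RefSeq windows of the build GRCm38.p6, reaching from 250 bases before to 50 bases after each transcription start, were available for 36 of the 43 genes. Windows were searched on both strands for the E2F words TTTCCCGC, TTTGGCGC, TTTCGCGC and TTTGCCGC, for the CCAAT box and for TTTGAA, the cell cycle homology region (CHR). An E2F word was present for 15 of the 36 genes, or 41.7%, against 704 of 27025 genes with a window in the whole genome, or 2.605%. CCAAT was present for 24 of the 36 genes, or 66.7%, against 41.1% of all genes. TTTGAA was present for 6 genes, or 16.7%, against 20.2%. These matches are letters in a window and not shown binding sites. Of the licensing genes, 7 of the 9 with a window held an E2F word, namely Orc1, Cdc6, Cdt1, Mcm3, Mcm5, Mcm6 and Mcm7. None of the 4 nucleotide supply genes did. Mcm6 held 3 matches, the most of any of these genes, while Mcm3, Mcm5, Mcm7, Rfc3 and Dnmt1 held 2 each.

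The 5 sequences that follow are the 250 bases before an annotated start, written along the gene from 5′ to 3′, with the bases of every E2F match in capitals. Mcm5 and Mcm6 are shown because subunits of the same helicase each carry a pair of overlapping matches on opposite strands, which read as a single run of capitals. Uhrf1 is shown because it had the largest fall in MT, at the downstream of its 2 annotated starts, since the other held no match. Pola1 is shown as a gene with a match whose difference between MT and MB did not pass the threshold, and Mcm10 as a gene that fell in MT without a match in its window. The positions are chr8:75109259-75109508 on the plus strand for Mcm5, chr1:128359706-128359955 on the minus strand for Mcm6, chr17:56304063-56304312 on the plus strand for Uhrf1, chrX:93632156-93632405 on the minus strand for Pola1 and chr2:5012792-5013041 on the minus strand for Mcm10. None of these 5 stretches overlapped an annotated exon.
Mcm5: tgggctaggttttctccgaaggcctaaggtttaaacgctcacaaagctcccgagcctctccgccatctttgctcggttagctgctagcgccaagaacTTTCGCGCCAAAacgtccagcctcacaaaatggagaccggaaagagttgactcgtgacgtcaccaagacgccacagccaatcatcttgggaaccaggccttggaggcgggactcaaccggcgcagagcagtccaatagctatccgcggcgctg
Mcm6: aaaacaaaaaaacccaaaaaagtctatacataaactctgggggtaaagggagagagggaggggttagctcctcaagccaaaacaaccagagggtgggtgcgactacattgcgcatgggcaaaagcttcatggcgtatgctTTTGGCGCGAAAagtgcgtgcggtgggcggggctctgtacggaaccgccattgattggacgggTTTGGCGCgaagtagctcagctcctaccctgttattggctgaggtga
Uhrf1: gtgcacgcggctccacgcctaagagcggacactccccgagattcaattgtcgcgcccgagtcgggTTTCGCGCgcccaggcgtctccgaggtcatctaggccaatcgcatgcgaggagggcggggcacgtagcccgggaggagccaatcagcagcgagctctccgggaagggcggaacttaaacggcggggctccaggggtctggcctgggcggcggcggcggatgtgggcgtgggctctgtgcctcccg
Pola1: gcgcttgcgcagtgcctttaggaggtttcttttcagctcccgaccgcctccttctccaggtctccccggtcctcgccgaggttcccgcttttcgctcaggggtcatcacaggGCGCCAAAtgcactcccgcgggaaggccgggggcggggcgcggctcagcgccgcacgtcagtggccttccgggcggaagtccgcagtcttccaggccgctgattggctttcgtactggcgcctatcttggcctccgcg
Mcm10: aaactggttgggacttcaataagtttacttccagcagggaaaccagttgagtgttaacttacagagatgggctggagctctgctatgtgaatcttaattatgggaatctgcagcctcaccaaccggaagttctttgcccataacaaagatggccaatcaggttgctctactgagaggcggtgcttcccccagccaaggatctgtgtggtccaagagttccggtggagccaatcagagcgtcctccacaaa

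Together the 15 genes held 22 matches, of which 13 began before the start and 9 at or after it. The CCAAT boxes of Mcm5 began at positions -77, -22 and 6 from the start, on the strand of the gene. Between an E2F word, CCAAT and TTTGAA, 1 overlap of matches of different motifs occurred in these windows.

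**Figure D1:**
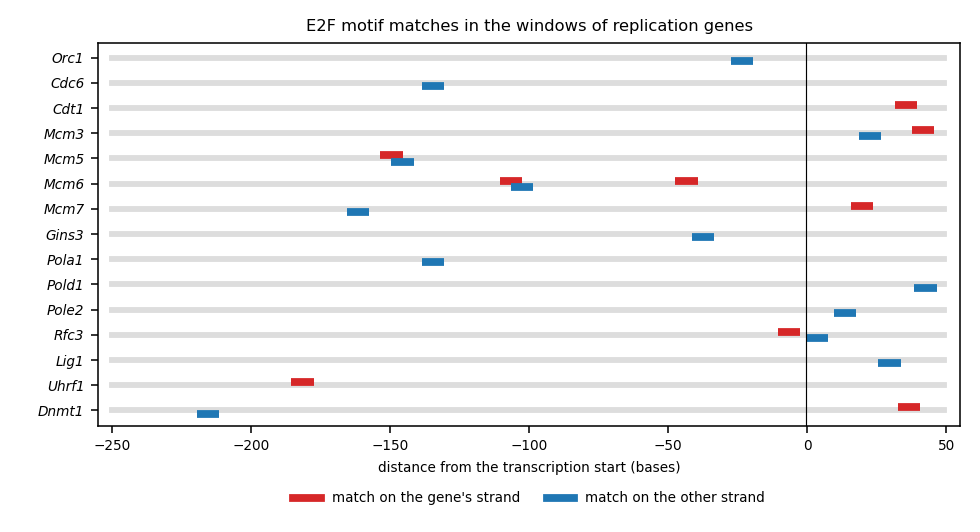
Positions of E2F words in the windows of the 15 replication genes that hold any, as distance in bases from the transcription start (vertical line). Grey bars are the windows, red marks are matches on the strand of the gene and blue marks matches on the other strand. Mcm5 and Mcm6 each show an overlapping pair of opposite strand.

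Between 5198247 and 10839516 reads were counted on genes in the cultured libraries and between 19307793 and 19941574 in the GAS libraries. Levels are given as CPM, read counts scaled to the depth of each library with TMM factors, or as RPKM, the same divided by exonic length. The genes of the machinery held between 0.650% and 0.765% of all counts in control MB, between 0.153% and 0.169% in MT and between 0.0319% and 0.0335% in GAS. Their summed level was 7146 and 7169 CPM in the control MB libraries and 1237 and 1690 CPM in the MT libraries. The labels of the cultured cells were checked with marker genes. All 6 markers of differentiated muscle rose in MT, with a summed level of 9817 and 11859 CPM in MT against 194 and 89.4 CPM in MB, and Pax7, which marks muscle precursors, fell by 4.11 on the log2 scale. The other myoblast markers did not pass the threshold, with log2FC values of -0.999 for Myf5, -1.93 for Myod1 and -1.09 for Vcam1.

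The first comparison asked how far the replication machinery differs between dividing MB and differentiated MT. Every one of the 43 genes had a lower fitted level in MT than in MB, with a median log2FC of -2.25 and a range from -3.43 for Uhrf1 to -0.46 for Rfc1. By edgeR's quasi-likelihood test with Benjamini-Hochberg adjustment over the 12921 genes tested, with an adjusted p under 0.05 and an absolute log2FC over 0.5 as the threshold, 35 of the 43 fell in MT and 0 rose. Across all genes tested, 6.86% fell and 11.0% rose, and the median log2FC was 0.07. Both MT libraries lay below both MB libraries for 40 of the 43 genes, against 29.2% of all genes tested. The count rests on a single library more than on the others, because without MT replicate 1 only 10 of the 43 passed the threshold, while the median log2FC was still -2.10. Over all genes the calls lower in MT also dropped in that fit, from 887 of 12921 to 270 of 13102, or 2.06%. Those 10 were Cdt1, Mcm3, Mcm5, Mcm6, Mcm7, Mcm10, Pole, Tk1, Chaf1a and Uhrf1. A lower level in bulk RNA cannot be told apart from fewer cells that carry the transcript, since the libraries average over all cells.

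**Figure D2:**
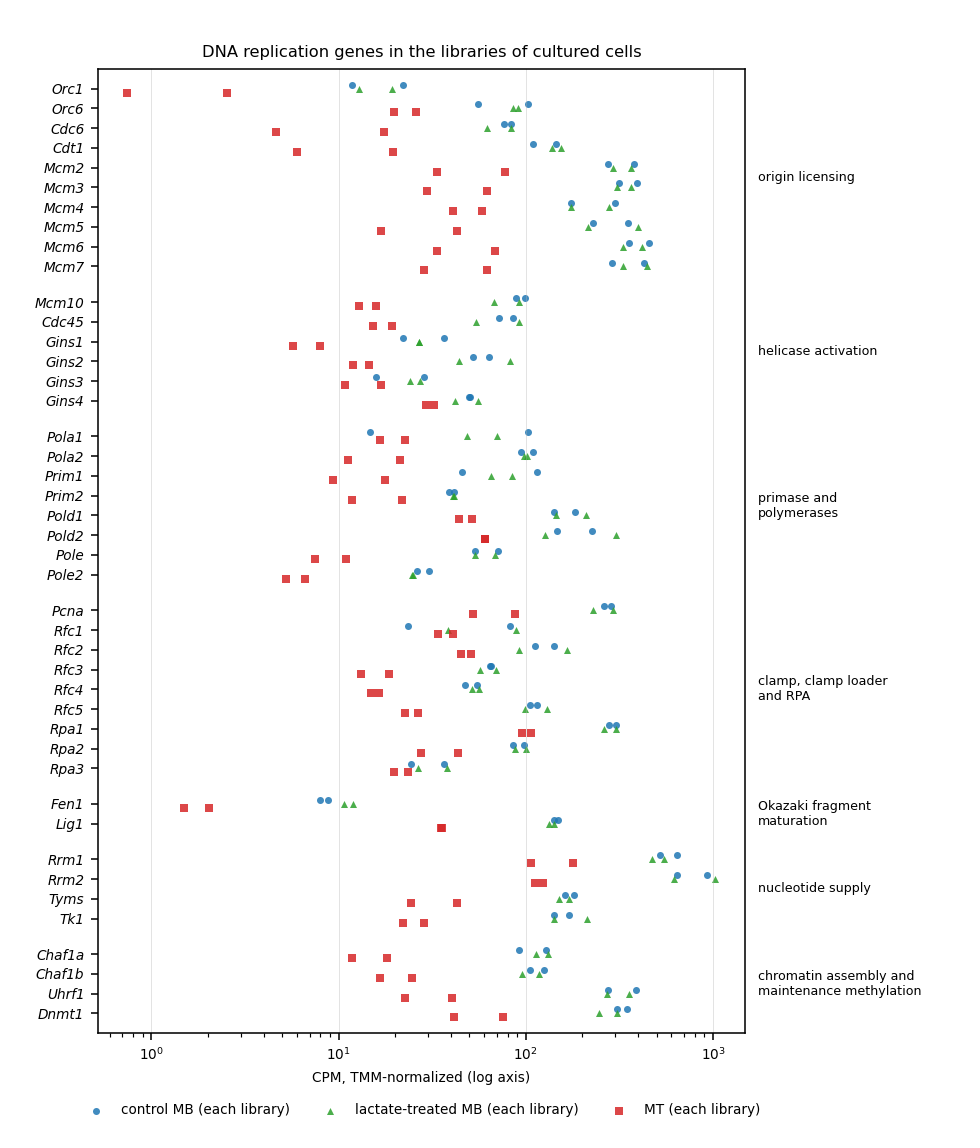
TMM-normalized CPM on a log axis for the 43 genes, grouped by role, with 1 point for each control MB (blue circles), lactate-treated MB (green triangles) and MT (red squares) library. The red points lie left of the blue ones for 40 genes and overlap them for Gins3, Pola1 and Rfc1, while green and blue points overlap for 41 genes.

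All 10 origin licensing genes fell in MT, with a median log2FC of -2.99. Orc1, the largest subunit of the origin recognition complex, was measured at 11.8 and 22.2 CPM in MB and at 0.745 and 2.54 CPM in MT. These MT values rest on 10 and 20 counts. The MB libraries were clear of the MT libraries, and the log2FC was -3.41 (SE 0.76, adjusted p = 0.0119). Cdt1, which brings the helicase ring to the origin together with Cdc6, had 146 and 110 CPM in MB and 6.03 and 19.5 CPM in MT, a log2FC of -3.38. Cdc6, the ATPase that acts with it, had 76.6 and 83.2 CPM in MB and 4.62 and 17.4 CPM in MT. In both genes MT replicate 1 was the lowest of the 4 libraries.

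The ring subunits Mcm2 to Mcm7 all fell, with log2FC values between -3.33 for Mcm5 and -2.25 for Mcm4, and were not tested against each other. In MB their levels per length ran from 47.2 RPKM for Mcm2 to 93.9 RPKM for Mcm3, a 1.99-fold range. In MT the range was 1.84-fold, from 7.50 RPKM for Mcm5 to 13.8 RPKM for Mcm4. Mcm3, which had the highest level per length of the licensing genes in MB, was measured at 391 and 313 CPM in MB and 29.7 and 62.1 CPM in MT (log2FC -2.98, SE 0.52, adjusted p = 0.00371). Mcm5 had 354 and 228 CPM in MB against 16.9 and 42.99 CPM in MT, and its pair of overlapping E2F words is printed above. Mcm6, with 3 matches, had 356 and 456 CPM in MB against 33.5 and 68.5 CPM in MT. No MT library reached an MB library for any ring subunit. Orc6, another subunit of the origin recognition complex, changed least in this group, from 55.8 and 103 CPM in MB to 19.7 and 25.9 CPM in MT (log2FC -1.78, SE 0.47, adjusted p = 0.0252).

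Of the 6 genes of helicase activation 4 fell, namely Mcm10, Cdc45, Gins1 and Gins2, with log2FC values from -2.72 to -2.05. Mcm10, which binds the helicase as it is activated, had 99.6 and 88.2 CPM in MB and 12.9 and 15.9 CPM in MT, with little spread within either group (log2FC -2.72, SE 0.46, adjusted p = 0.00330). Cdc45, a fixed part of the moving helicase, had 85.4 and 72.1 CPM in MB and 15.2 and 19.3 CPM in MT. Among the GINS subunits, whose changes were not tested against each other, Gins1 and Gins2 passed the threshold with log2FC values of -2.05 and -2.14, and Gins3 and Gins4 did not. Gins3 had 15.8 and 28.6 CPM in MB and 16.8 and 10.8 CPM in MT, so that the groups overlapped (log2FC -0.64, SE 0.55, adjusted p = 0.455). Gins4, the gene of this group with the highest level per length in MB, had 50.4 and 49.7 CPM in MB and 29.4 and 32.2 CPM in MT. Its libraries were separate and close within each group, yet the log2FC of -0.70 (SE 0.44) did not pass (adjusted p = 0.301). For Gins2, 67.3% of the exonic bases are shared with Gse1 on the opposite strand, and since the handling of strand in the counting is not given in the sources used here, its value is uncertain.

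Of the 8 primase and polymerase genes 6 fell, with a median log2FC of -2.02 over all 8. Pole, the catalytic subunit of the leading strand polymerase epsilon, changed most, from 70.8 and 53.9 CPM in MB to 7.52 and 10.9 CPM in MT (log2FC -2.78, SE 0.50, adjusted p = 0.00468). Pold2, an accessory subunit of the lagging strand polymerase delta, had the highest level per length of the group, 98.5 RPKM in MB. It was measured at 227 and 146 CPM in MB and at 60.8 and 60.5 CPM in MT (log2FC -1.64, SE 0.46, adjusted p = 0.0319). The 4 subunits of DNA polymerase alpha and primase, which lay down the primers, were not tested against each other. Pola2 and Prim1 fell, with log2FC values of -2.68 and -2.56. Prim2, the large primase subunit, had 39.0 and 41.6 CPM in MB and 21.7 and 11.8 CPM in MT, which were separate without passing the threshold (log2FC -1.23, SE 0.52, adjusted p = 0.128). Pola1, the catalytic subunit, had 14.7 and 102 CPM in MB and 16.7 and 22.8 CPM in MT. Its 2 MB libraries differed more than the groups did, the lower of them lay below both MT libraries, and the log2FC of -1.52 (SE 0.71) did not pass (adjusted p = 0.170), though it did without the filter on low counts and without MB replicate 1.

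The clamp, clamp loader and single-strand binding genes had the smallest changes of the roles with more than 2 genes, with a median log2FC of -1.52 and 6 of 9 that fell. Pcna, the sliding clamp, had the highest level per length of them in MB, 114 RPKM, and went from 263 and 287 CPM in MB to 52.2 and 87.8 CPM in MT (log2FC -1.99, SE 0.45, adjusted p = 0.0134). The pseudogenes Pcna-ps1 and Pcna-ps2 are annotated, so reads of Pcna could be split or lost. Of the clamp loader subunits, Rfc5 changed most, from 115 and 105 CPM to 26.6 and 22.5 CPM (log2FC -2.16, SE 0.44, adjusted p = 0.00834). Rfc1, the large subunit, had 23.4 and 82.8 CPM in MB and 33.9 and 41.1 CPM in MT, with the MT values between the MB values (log2FC -0.46, SE 0.56, adjusted p = 0.608). Rfc2, Rfc3 and Rfc4 fell, with log2FC values of -1.41, -2.04 and -1.70. In replication protein A, which coats single-stranded DNA, Rpa1 fell from 304 and 277 CPM to 107 and 95.0 CPM. Rpa2 missed the threshold narrowly (log2FC -1.39, SE 0.44, adjusted p = 0.0528), and Rpa3 had 24.3 and 36.8 CPM in MB against 23.4 and 19.7 CPM in MT, a log2FC of -0.48 (adjusted p = 0.535). Rfc2 and Rpa1 also lost their call when the replicate number was included as a block.

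Lig1, the ligase that seals Okazaki fragments, fell from 148 and 141 CPM in MB to 35.4 and 35.9 CPM in MT, with the smallest SE of the 43 genes (log2FC -2.02, SE 0.43, adjusted p = 0.00943). Fen1, the nuclease that trims them, had 7.97 and 8.80 CPM in MB and 1.49 and 2.03 CPM in MT. Its libraries were separate, but the MT values rest on 20 and 16 counts, and the log2FC of -2.25 (SE 0.73) did not pass (adjusted p = 0.0566). Fen1 was called lower by DESeq2, by the likelihood ratio test, with at least 10 counts in every library and in both fits of all 6 cultured libraries. Rpa2 was called in these as well, apart from the filter of 10 counts, and also without MB replicate 2. Of the exonic bases of Fen1, 78.8% are also annotated for the antisense gene Gm10143, which itself had 0 to 15 counts in these 4 libraries, so its low level is uncertain. In all, 15 of the 43 genes share some exonic bases with another annotated gene, and 3 of them, Fen1, Gins2 and Chaf1a, share more than 50%.

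All 4 genes of nucleotide supply fell. Rrm2, the regulated subunit of ribonucleotide reductase, had the highest level per length of all 43 genes in MB, 284 RPKM. It was measured at 643 and 932 CPM in MB and at 112 and 123 CPM in MT (log2FC -2.73, SE 0.50, adjusted p = 0.00516). Rrm1, the other subunit, changed least of the group, from 520 and 645 CPM to 107 and 178 CPM (log2FC -2.04, SE 0.49, adjusted p = 0.0167). Tk1, thymidine kinase of the salvage route, went from 170 and 142 CPM to 22.2 and 28.5 CPM, and Tyms, which makes thymidylate, from 162 and 180 CPM to 24.4 and 42.99 CPM.

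The 4 genes that act on chromatin behind the fork fell as well, with a median log2FC of -2.71. Uhrf1, which recognizes hemimethylated DNA, had the largest change of all 43 genes, from 389 and 275 CPM in MB to 22.7 and 40.6 CPM in MT (log2FC -3.43, SE 0.51, adjusted p = 0.00173). Dnmt1, the maintenance methyltransferase that Uhrf1 recruits, went from 346 and 307 CPM to 41.4 and 75.9 CPM. Chaf1a and Chaf1b, subunits of the histone chaperone CAF-1, had log2FC values of -2.92 and -2.50. Chaf1b changed least of the group, from 125 and 106 CPM to 16.7 and 24.5 CPM (SE 0.45, adjusted p = 0.00476). For Chaf1a, 52.5% of the exonic bases are shared with Ubxn6 on the opposite strand, so its value is uncertain too. Ubxn6 had 106 and 50.3 CPM in MB and 48.5 and 110 CPM in MT.

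**Figure D3:**
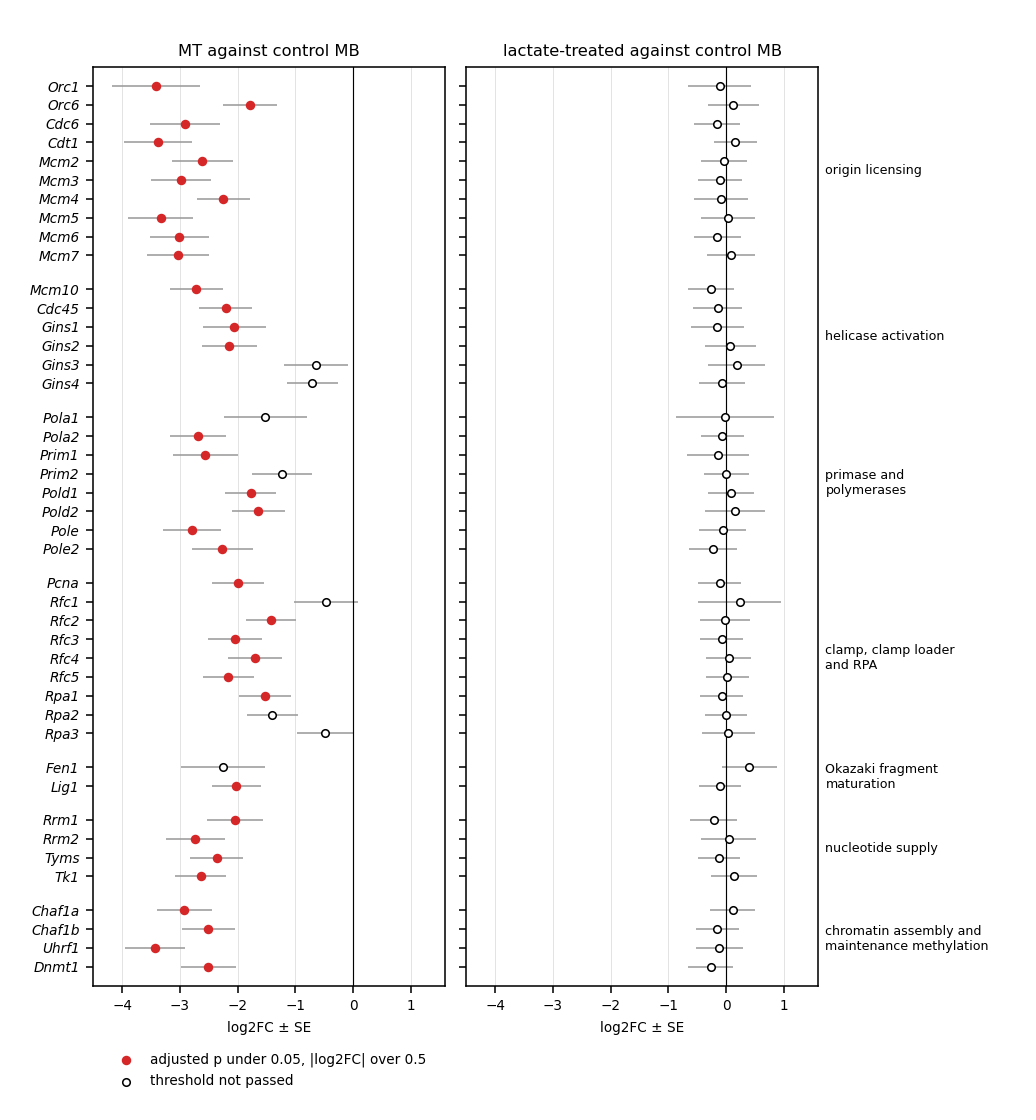
log2FC with its SE for each gene, for MT against control MB (left) and lactate-treated against control MB (right), with filled red points where the adjusted p was under 0.05 and the absolute log2FC over 0.5. On the left all 43 points lie below 0 and 35 are filled, and on the right no point is filled and the values range from -0.27 to 0.40.

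An E2F word stood in the window of 13 of the 30 genes that fell and had a window, or 43.3%, and of 2 of the 6 that did not pass, Gins3 and Pola1.

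Among 59 other genes of DNA replication, listed by role with earlier results of these data known, 24 fell in MT and 1 rose. The median log2FC of the 59 was -1.42. With the replicate block 19 of them fell and 0 rose, since Gmnn, Pold3, Dck, Dtymk, E2f8 and Pold4 no longer passed. An E2F word was present for 15 of the 48 of them with a window, or 31.2%. Shmt1, which makes folate-bound carbon units for thymidylate synthesis, had the largest fall, from 93.0 and 87.3 CPM to 5.14 and 7.88 CPM (log2FC -3.81). Recql4, a helicase needed for origin firing, followed with a log2FC of -3.32. Of the other nucleotide genes 6 of 8 fell, of the other fork genes 8 of 18 and of the origin firing genes 3 of 7. Of the E2F factors and S phase regulators 4 of 12 fell, and of the replication chromatin genes 2 of 8. Of the other licensing genes 1 of 6 fell, which was Gmnn. Orc2, Orc3, Orc4 and Orc5 did not pass, with log2FC values of -1.28, 0.11, 0.40 and -0.93. The gene that rose was Pold4, the small subunit of polymerase delta, from 32.7 and 24.8 CPM in MB to 73.7 and 95.5 CPM in MT (log2FC 1.54, SE 0.45, adjusted p = 0.039). E2f1, an activating E2F factor, had 26.2 and 20.97 CPM in MB and 51.4 and 49.1 CPM in MT, which did not pass (log2FC 1.08, adjusted p = 0.134). E2f7 and E2f8, repressing members of the family, fell, with log2FC values of -2.17 and -1.42, the former also with the block. E2f3 fell too, with a log2FC of -1.93, and also with the block. E2f2, E2f4, E2f5 and E2f6 did not pass, with log2FC values of 0.30, -1.08, 0.43 and 0.52.

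The 2 MT libraries differed from each other in the same genes. MT replicate 2 was higher than replicate 1 for 34 of the 43 genes, at a median of 1.37-fold, and for all 10 licensing genes at a median of 2.24-fold. Cdc6 differed most, by 1.92 on the log2 scale, followed by Orc1 with 1.77 and Cdt1 with 1.69. Over all genes tested with counts in the 4 libraries the median log2 ratio was 0.16. Other measures separated these libraries as well. Of 4 fibroblast markers, Col1a1 and Dcn rose in MT, Pdgfra did not pass the threshold and Thy1 was at 0.0745 CPM or lower in MT. Their summed level was 13530 CPM in MT replicate 1, 1875 CPM in MT replicate 2 and 2.17 to 2.70 CPM in control MB. Endothelial markers summed to 9.53 CPM in MT replicate 1 and to 0 in MT replicate 2, and markers of macrophages and leukocytes to 16.8 and 2.93 CPM. The markers of differentiated muscle summed to 9817 CPM in replicate 1 and 11859 CPM in replicate 2. The part of other cell types in the level of the replication genes was not tested.

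The control MB libraries differed from each other by gene and not as a whole, with 20 of the 43 genes higher in replicate 2 and 23 higher in replicate 1. Pola1 was the extreme, 2.80 higher in replicate 2 on the log2 scale, then Rfc1 with 1.82 and Prim1 with 1.34, while Mcm5 was at -0.63. These ratios followed the GC content of the longest annotated transcript, which ranged from 34.2% to 61.0%. Pearson's r was -0.62 and Spearman's rho -0.76 across the 43 genes, which all come from the same pair of libraries, and -0.64 and -0.67 across 12333 genes tested. Between the MT replicates r was 0.17 and rho 0.16 across the 43 genes. Without MB replicate 2 the fitted change turned to 0.26 for Pola1 and 0.52 for Rfc1, with neither past the threshold. The proliferation markers Mki67 and Top2a summed to 226 CPM in MB replicate 1 and 659 CPM in MB replicate 2, and to 145 and 115 CPM in MT. Mki67 had 30.0 and 124 CPM in MB and 31.6 and 25.8 CPM in MT, so that the groups overlapped. It did not pass the threshold (log2FC -1.36). Top2a fell in MT (log2FC -1.80), but did not pass with the replicate block.

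**Figure D4:**
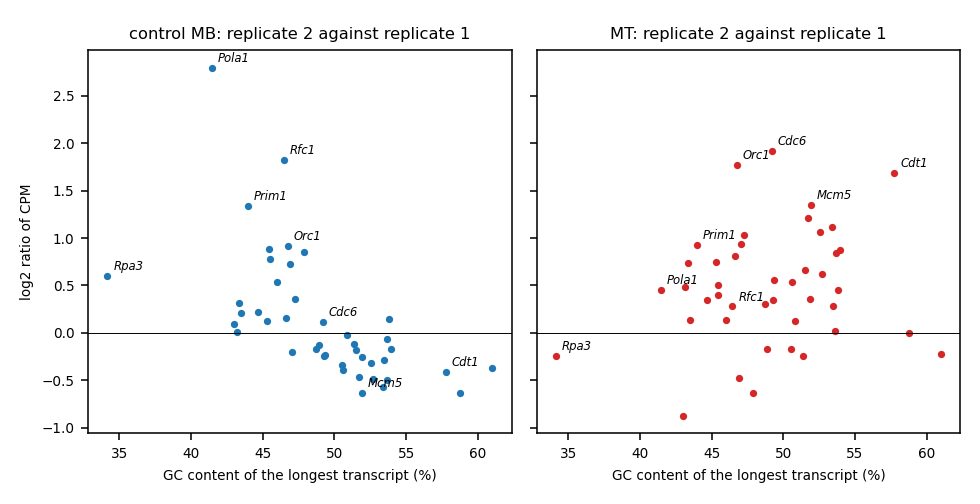
Log2 ratio of CPM in replicate 2 over replicate 1 against the GC content of the longest transcript, in percent, for the 43 genes in control MB (left) and MT (right). In MB the ratios tend to be higher at low GC content, with Pola1, Rfc1 and Prim1 at the top. Prim2 and Rfc3, also of low GC content, lie near 0. In MT most genes lie above 0, with Cdc6, Orc1 and Cdt1 at the top.

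The next comparison asked whether lactate alters the same genes in MB. It uses the same control MB libraries as the comparison with MT, so the results are not independent of each other. None of the 43 genes passed edgeR's quasi-likelihood test, where 0 of them had an adjusted p under 0.05 and 0 had an unadjusted p under 0.05. Over the 11804 genes tested 0% passed the adjusted threshold, and 5 genes had an unadjusted p under 0.05. The nominal threshold of p under 0.01 with an absolute log2FC over 0.5 was passed by 0%. With so few genes reaching a p under 0.05 in this fit, 0 of 43 says little about the replication genes. DESeq2 and the likelihood ratio test also gave 0 calls among the 43. The median log2FC of the replication genes was -0.06 and the range ran from -0.27 for Dnmt1 to 0.40 for Fen1, with SE values between 0.36 and 0.85. With the replicate block the SE values lay between 0.22 and 0.47, and 0 of the 43 had a p under 0.05, as against 166 of all genes tested, or 1.41%, of which 13 passed the nominal threshold. Without MB replicate 2 these numbers were 511 and 177 of 12021 genes. Only with MB replicate 2 left out did 1 of the 43 reach an unadjusted p under 0.05, and its adjusted p by edgeR's test was 0.716.

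Lactate-treated libraries summed to 7265 and 6922 CPM over the 43 genes, next to the 7146 and 7169 CPM of control MB. Mcm5 was measured at 400 and 215 CPM with lactate and at 354 and 228 CPM in control MB, so that the replicates differed more than the treatments. The same held for Rrm2, with 623 and 1031 CPM against 643 and 932 CPM, and for Mcm6, with 329 and 418 CPM against 356 and 456 CPM. Cdt1 had 154 and 138 CPM with lactate and 146 and 110 CPM without. Values of the treated and control libraries overlapped for 41 of the 43 genes. The groups were separate for Fen1, with 10.7 and 11.9 CPM with lactate and 7.97 and 8.80 CPM without (log2FC 0.40, SE 0.48), and for Pole2, with 24.6 and 25.1 CPM against 26.2 and 30.5 CPM (log2FC -0.23, SE 0.42). Such separation was found for 11.1% of all genes tested. When libraries of the same replicate number were compared, 8 genes were lower with lactate in both, 7 were higher in both and 28 went opposite ways, with medians of 0.09 and -0.08. By role, the medians ranged from -0.13 for the chromatin genes to 0.15 for Fen1 and Lig1.

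In GAS, where most RNA comes from fibers whose nuclei no longer divide, the 43 genes had a median of 0.728 RPKM. Their median was 28.1 RPKM in control MB and 6.22 RPKM in MT. Over all 36429 genes with a length, the median was 0.0139 RPKM in GAS, 0 in control MB and 0.257 RPKM in MT. In GAS 18 of the 43 exceeded 1 RPKM, against 9874 of the 36429, or 27.1%. All 43 exceeded 1 RPKM in MB and 40 did in MT, where Orc1, Fen1 and Pole were lower. Over all genes these shares were 28.2% in MB and 34.3% in MT. GAS was not tested against the cultured cells, because the library protocols differ and the normalization was done separately, so these levels stand side by side without a fold change.

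The 5 highest genes in GAS were Rpa1, Rpa2, Pold2, Gins4 and Pcna. Rpa1 stood at 14.4 ± 0.415 RPKM (SD, n = 3), with 14.1, 14.9 and 14.2 RPKM in the 3 libraries. Rpa2 followed at 7.98 ± 0.462 RPKM, Pold2 at 7.63 ± 0.346 RPKM, Gins4 at 7.39 ± 0.616 RPKM and Pcna at 7.38 ± 0.384 RPKM (each SD, n = 3). Rpa2 (7.68, 7.75 and 8.51 RPKM), Pold2 (8.03, 7.42 and 7.45 RPKM), Gins4 (7.53, 6.72 and 7.93 RPKM) and Pcna (6.94, 7.62 and 7.59 RPKM) overlapped, so their order is not resolved, whereas Rpa1 was clear of them in every library. Gins4 and Gins3 had been the GINS genes with the smallest change in MT. In GAS the GINS genes ranged from 0.153 RPKM for Gins2 to 7.39 RPKM for Gins4, a 48.3-fold range against 4.53-fold in MB. The low end is uncertain, since Gins2 had 14, 19 and 4 counts and shares 67.3% of its exonic bases with Gse1. Gins3 stood at 0.377 RPKM and Gins1 at 0.765 RPKM.

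At the other end, Mcm10 was counted 5, 2 and 2 times, Chaf1b 1, 6 and 0 times, Cdc6 2, 4 and 4 times, Orc1 1, 6 and 0 times and Tyms 14, 10 and 7 times in the 3 libraries. Their means were 0.0199 RPKM for Mcm10, 0.0252 RPKM for Chaf1b, 0.0326 RPKM for Cdc6, 0.0340 RPKM for Orc1 and 0.0865 RPKM for Tyms. In these libraries 3 counts amount to no more than 0.156 CPM, a limit of counting error only, and the order of these genes is not resolved. The ring subunits, which lay within a 1.99-fold range in MB, spread over 15.4-fold in GAS, from 0.162 RPKM for Mcm5 to 2.49 RPKM for Mcm7, with Mcm2 at 1.40, Mcm4 at 1.37, Mcm3 at 0.942 and Mcm6 at 0.566 RPKM. Mcm7 shares exonic bases with Ap4m1 and Cops6 on the opposite strand, 7.3% and 1.4% of its length. Ribonucleotide reductase was similarly unequal, with Rrm1 at 3.50 RPKM and Rrm2, the most abundant of the 43 genes in MB, at 0.227 RPKM. Rrm2b, the alternative small subunit that serves cells outside S phase, stood at 4.02 ± 0.355 RPKM in GAS and at 0.813 RPKM in MB.

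**Figure D5:**
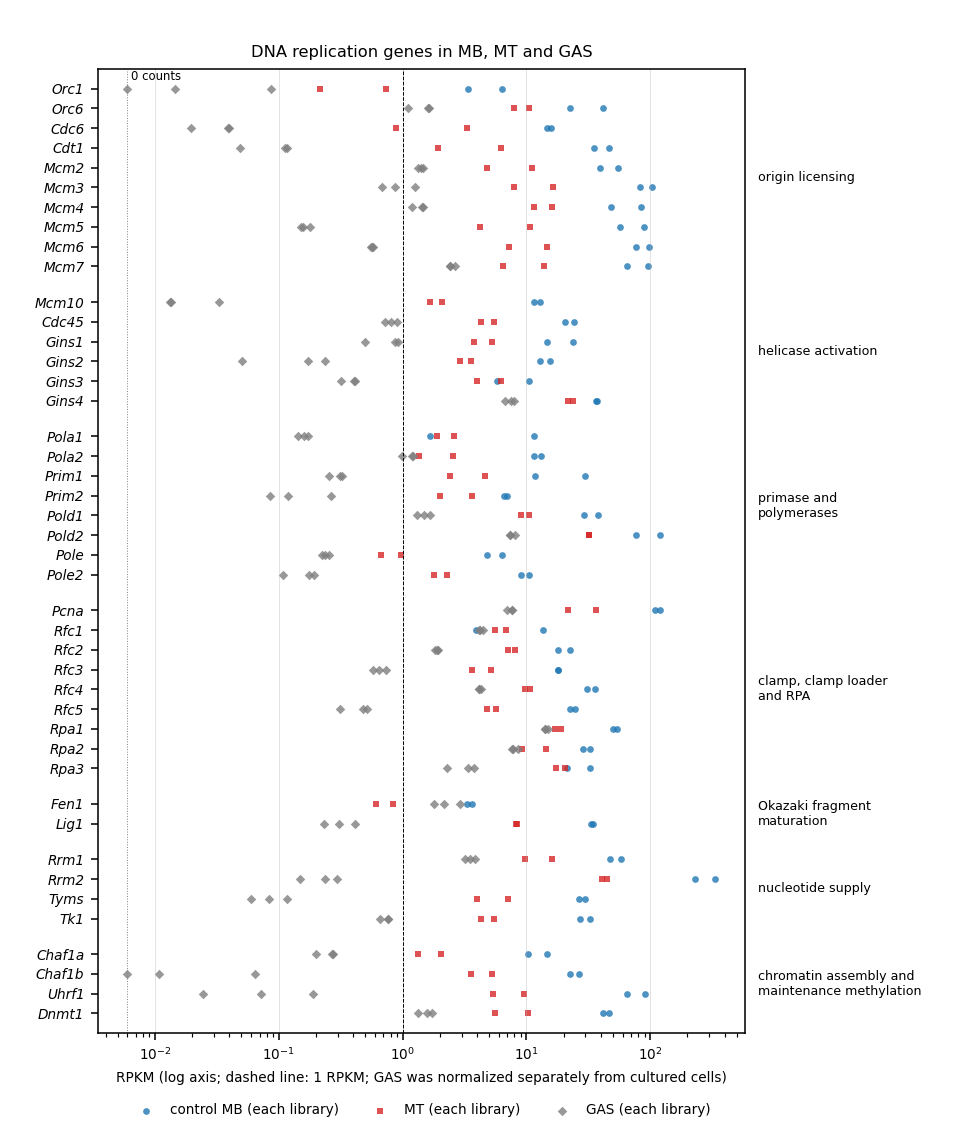
RPKM on a log axis for each library of control MB (blue circles), MT (red squares) and GAS (grey diamonds), by role, with libraries at 0 counts drawn on the dotted line and 1 RPKM as the dashed line. GAS points lie lowest for most genes, at 14.4 RPKM on average for Rpa1 and at 0.0199 RPKM for Mcm10.

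By role, the median in GAS was 4.20 RPKM for the clamp, clamp loader and single-strand binding genes, of which 7 of 9 exceeded 1 RPKM. It was 0.754 RPKM for the licensing genes, 0.571 RPKM for helicase activation and 0.269 RPKM for primase and polymerases. Among the other genes of the pathway, Ticrr, which is needed for origin firing, had 0 counts in all 3 GAS libraries, and E2f6, a repressing E2F factor, was highest at 31.8 ± 0.970 RPKM (SD, n = 3). GAS contains other cells than muscle fibers. The 3 endothelial markers summed to between 110 and 129 CPM, the fibroblast markers to between 321 and 412 CPM and the leukocyte markers to between 16.2 and 17.5 CPM, next to between 104660 and 118831 CPM for the markers of differentiated muscle. Mki67 and Top2a together reached between 0.727 and 1.57 CPM. Which cells of the tissue carry the replication transcripts was not tested.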

How the data were processed

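The authors trimmed the reads with Trim Galore 0.6.6, aligned them to mm10 with HISAT2 2.2.1 and counted them on Ensembl genes with featureCounts of Subread 2.0.1, per the submitters' processing notes and methods. What they deposited are raw read counts for every gene in every library, with no pooling of replicates. The annotation release, strand setting and treatment of reads with several alignments are not given in the sources used here.

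Names, exonic lengths and overlaps were taken from GENCODE M21. Tests were run in R 4.3.3 (edgeR 4.0.16, DESeq2 1.42.0), and tables and plots were made in Python 3.11.15 (pandas 2.3.3, scipy 1.17.1, matplotlib 3.10.9). Each comparison was fitted on its own 4 libraries with edgeR's filterByExpr, TMM factors and the quasi-likelihood test, adjusted over all genes tested, and all 43 genes passed the filter in both. The SE is the absolute log2FC over the root of the F statistic. CPM and RPKM used TMM factors set separately for GAS and cultured cells. The fit of each comparison, without the replicate block, was also run on simulated counts that held no shared replicate effect. No result given here rests on that run.

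Groups follow the sample titles. The members and lists were chosen with earlier results of these data known. Named in full, for each role, are the genes with the largest and the smallest change in MT and the highest RPKM in MB, and in GAS the 5 highest and the 5 lowest, and genes chosen after their values were seen are Cdt1, Cdc6, Mcm5, Mcm6, Cdc45, Gins1, Gins2, Rpa1, Tk1, Tyms and Dnmt1, the other genes that did not pass in MT, and in the lactate comparison Mcm5, Rrm2, Mcm6, Cdt1, Fen1 and Pole2. Other genes of the pathway were to be named where largest or unlike the rest in direction. E2f1 to E2f8, Orc2 to Orc5, Gmnn, Ticrr and Rrm2b were added after their values were seen. Alternatives were RLE factors, DESeq2, the likelihood ratio test, other filters and thresholds, all 6 cultured libraries in a single fit, the replicate block, removal of ribosomal RNA genes and Gm26917, and leaving out each replicate. A search of the proteins for the PCNA-binding motif was not run.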

Additional observations from a re-analysis of the deposited data

How the results depend on the processing

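Under the other normalization, tests, filters and fits of all cultured libraries, between 3.33% and 10.4% of all genes tested fell in MT. Between 4.60% and 14.8% of them rose. The number of the 43 genes that fell lay between 34 and 37 in these fits, and 0 rose under any of them. It was 21 with an adjusted p under 0.01 and an absolute log2FC over 1, and lay between 10 and 37 when each replicate was left out, with 10 without MT replicate 1 and 28 without MT replicate 2. With the replicate block 33 fell, since Rfc2 and Rpa1 were lost, and 824 of all genes tested fell and 1447 rose. SE values of the 43 ran from 0.586 to 0.934 with this block and from 0.426 to 0.758 without it. The smallest p among them by edgeR's quasi-likelihood test was nevertheless 9.26e-08 with the block and 4.26e-05 without it. A call kept with the block is therefore not a call kept under a stricter test. The replicate numbers are not stated to mark a shared culture, and deviations from the group means correlated with -0.117 between same-numbered MT and MB libraries and with 0.712 between lactate-treated and control MB. With the numbers crossed, an alternative chosen after seeing the data, 34 of the 43 fell. Where a replicate is left out, the lone library of a group is assumed to vary like those of the other group. The median log2FC of the 43 lay between -2.54 and -2.10 with each replicate left out, and that of all genes tested between -0.02 and 0.997. The count at the stricter threshold is given without the share of all genes that passed it. The same holds for the fits with a replicate left out, apart from that without MT replicate 1. These counts therefore show how many of the 43 passed and not how far they differ from other genes. Pola1 and Rfc1 turned to 0.26 and 0.52 without MB replicate 2, and to -2.42 and -1.19 without MB replicate 1, and the cause was not tested. Over all genes, DESeq2 called 1292 lower and 1729 higher and the likelihood ratio test 1343 and 1908, against 887 and 1425. In the lactate comparison the count of calls stayed at 0 among the 43 under every alternative run. Its SE values, 0.36 to 0.85 and with the block 0.22 to 0.47, limit what could be detected.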
